A study of Mus musculus with 4 samples.

Results

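Insulin acts on hepatocytes through a chain of proteins that runs from its receptor to the FoxO transcription factors. The genes described here include the receptor Insr, its substrates Irs1 and Irs2, the kinase subunit Pik3r1 and the kinase Akt2. With the transcription factors Foxo1 and Foxo3 and the outputs Igfbp1 and Trib1, they are 9 members of that chain. They were taken by symbol, 9 of 32285 gene symbols in the count matrices, and all 9 were found in each of 4 libraries of single liver nuclei. Each library held nuclei from frozen mouse liver, pooled from 8 mice per group at 50 mg. The 2 fasted libraries came from mice without food for 16 to 24 h, and the 2 fed libraries from fed controls; no transgene or drug is named for either group. Strain, sex and age are not given in the sources used here. It is not stated whether the preparations of a group share their mice. The p-values for feeding thus measure the spread between preparations, part or all of which may be technical. Other tests compare 2 parts of the same library, or ask whether such a difference changes with feeding. Their p-values measure how that difference varies between preparations, which may likewise be technical in part or in all.

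When insulin binds, the receptor phosphorylates its substrates, which recruit phosphoinositide 3-kinase, and the kinase Akt then phosphorylates FoxO factors and drives them out of the nucleus. In fasting, when insulin is low, FoxO1 stays in the hepatocyte nucleus and turns on genes for glucose output and for the secreted protein Igfbp1, which binds insulin-like growth factors. The counts below measure RNA in nuclei, not phosphorylation or the place of a protein in the cell.

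The promoter windows of Igfbp1, Irs1 and Irs2 are printed because these were the members whose windows held the motif TGTTTTG or its reverse complement CAAAACA, the core of the insulin response element that FoxO1 binds in the Igfbp1 promoter. The windows run from 250 bases before to 50 after the start that RefSeq gives, on the gene's own strand, and are taken from RefSeq on build GRCm38.p6. Capitals mark the motif. The Igfbp1 window lies at chr11:7197537-7197836 on the plus strand, that of Irs1 at chr1:82291390-82291689 on the minus strand and that of Irs2 at chr8:11008880-11009179 on the minus strand.
Igfbp1: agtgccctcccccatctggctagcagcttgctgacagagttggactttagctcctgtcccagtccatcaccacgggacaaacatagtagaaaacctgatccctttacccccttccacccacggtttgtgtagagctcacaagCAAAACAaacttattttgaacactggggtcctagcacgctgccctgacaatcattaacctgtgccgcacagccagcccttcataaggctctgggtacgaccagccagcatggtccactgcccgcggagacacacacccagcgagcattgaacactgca
Irs1: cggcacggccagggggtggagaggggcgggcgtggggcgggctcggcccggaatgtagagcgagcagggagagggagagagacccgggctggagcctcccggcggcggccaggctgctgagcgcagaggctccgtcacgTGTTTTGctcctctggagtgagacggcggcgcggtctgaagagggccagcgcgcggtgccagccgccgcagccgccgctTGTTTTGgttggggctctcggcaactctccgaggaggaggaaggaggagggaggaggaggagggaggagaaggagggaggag
Irs2: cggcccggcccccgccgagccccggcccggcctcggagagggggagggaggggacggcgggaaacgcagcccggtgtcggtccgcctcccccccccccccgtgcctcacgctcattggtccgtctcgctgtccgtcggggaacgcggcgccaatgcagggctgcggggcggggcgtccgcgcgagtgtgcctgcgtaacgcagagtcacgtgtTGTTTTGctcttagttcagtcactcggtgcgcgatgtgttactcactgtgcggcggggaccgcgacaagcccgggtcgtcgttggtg
Igfbp1 had 1 match on the other strand, from base -108 to -102 relative to the RefSeq start. Irs1 had 2 matches on its own strand, from -111 to -105 and from -32 to -26, and Irs2 had 1, from -37 to -31. The GENCODE gene of Irs2 (chromosome 8, 10984681 to 11008458, minus strand, GRCm38) begins downstream of the RefSeq start, so that the whole Irs2 window lies upstream of the GENCODE gene. The motif on either strand was found in 6.24% of 27025 windows of this length, the first listed window of each gene. Of the 9 members, 7 had windows in the table, and all their windows were searched, 4 for Akt2 and 2 for Pik3r1. The FoxO motif TGTTTAC (reverse complement GTAAACA), found in 3.55% of the 27025 windows, was in no window of a member. The motif CTTTGAT (reverse complement ATCAAAG), to which TCF and LEF factors bind, was found in 3.72% of the 27025 windows. Among the members it was in the first window of Akt2, which held 2 matches. A match is a description of these letters and no binding was measured here.

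After filtering, 29818 nuclei remained, of which 18832 were hepatocyte-like by markers such as Alb and Apob. Endothelial-like (5401), Kupffer cell- or macrophage-like (1978), stellate-like (1773), cholangiocyte-like (510) and B or plasma cell-like (420) nuclei were the other types that reached 20 nuclei in each library, and the suffix is dropped from here on. Total counts of unique molecular identifiers (UMIs, 1 per captured transcript) were 30955600 and 24139311 in the fasted libraries and 22924339 and 8078755 in the fed ones. Hepatocytes of fed 2 were the shallowest, at a median of 1282 UMIs, while those of the other libraries had medians of 2554.5 to 3239. The share of Gm42418, where stray ribosomal RNA reads are counted, was 4.61% of UMIs in fed 2 and at most 1.01% in the others. Most hepatocyte clusters came mainly from 1 library. In fed 1, a cluster led by the acute-phase genes Saa1 and Saa2 held 1651 of 5060 hepatocytes (32.6%), against 0.13% or less of hepatocytes in the other libraries. Libraries shared between 12 and 42 barcodes, at most 0.431% of the smaller library. Levels are given as CPM, a gene's UMIs per 1000000 UMIs summed over the nuclei of a type in a library. In such sums fewer cells with the RNA and less RNA per cell cannot be told apart.

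Blood crosses the liver lobule from portal to central veins, and 2 of the 9 genes differed along that way in hepatocytes. Igfbp1 and Irs1 were both higher in pericentral than in periportal hepatocytes, each in 4 of 4 libraries. None of the other 7 passed the test in either direction. Hepatocytes with at least 1500 UMIs were ranked in each library by a score of pericentral minus periportal landmark genes, none of them a member, and cut into 3 zones of equal size: pericentral, middle and periportal. The pericentral zone was set against the periportal zone in edgeR's quasi-likelihood test with library as a block. Over all genes the test called 16.2% of 12245 at an adjusted p (Benjamini-Hochberg) under 0.05, 7.97% higher and 8.22% lower in the pericentral zone, against 2 of 9 and 0 of 9 members.

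Igfbp1 lies on chromosome 11 (7197782 to 7202546, plus strand, GRCm38). In fasted 1 it had 59.9 CPM in the pericentral zone and 30.4 CPM in the periportal zone, and in fasted 2 it had 50.5 and 21.0 CPM in the same order. In fed 1 the pericentral zone had 29.3 CPM and the periportal zone 17.2 CPM, and in fed 2 they had 33.6 and 27.2 CPM. These levels rest on 445 pericentral and 165 periportal UMIs in fasted 1, 345 and 108 in fasted 2, 175 and 78 in fed 1, and 53 and 39 in fed 2. The pericentral zone was thus above the periportal one in each library, with the smallest difference in the shallowest. The log2 fold change, pericentral over periportal, was 0.95 (SE 0.12; edgeR adjusted p = 1.38e-05), at percentile 96.8 of the log2 fold changes of all genes tested. Leaving out each library in turn gave 0.81 to 1.04, and without the acute-phase cluster it was 0.92 (edgeR adjusted p = 1.21e-04). Over its 12 alternatives the adjusted p of Igfbp1 stayed between 5.83e-16 and 0.00204.

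Irs1 is the docking protein that links the receptor to phosphoinositide 3-kinase, and it lies on chromosome 1 (82233101 to 82291416, minus strand, GRCm38). Its pericentral levels were 188 CPM in fasted 1, 183 in fasted 2, 124 in fed 1 and 204 in fed 2, against periportal levels of 117, 131, 105 and 121 CPM in the same order. The ratio of pericentral to periportal level was 1.60, 1.39, 1.18 and 1.68 in these libraries, lowest in fed 1. The log2 fold change was 0.53 (SE 0.07; edgeR adjusted p = 4.11e-05), at percentile 92.3. It was 0.46 to 0.62 when each library was left out, 0.48 without the acute-phase cluster (edgeR adjusted p = 0.00290), and past the threshold in all 12 alternatives, where the adjusted p of Irs1 ran from 8.05e-13 to 0.00374. Over all genes, 15.2% were higher in the pericentral zone in all 4 libraries and 17.4% were lower in all 4.

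Irs2, the other main substrate in liver, had pericentral levels of 47.7, 85.6, 63.8 and 86.2 CPM in fasted 1, fasted 2, fed 1 and fed 2, against 38.7, 74.5, 57.2 and 116 CPM in the periportal zone. The pericentral zone was higher in 3 libraries and lower in fed 2, and the log2 fold change of 0.11 (SE 0.10; edgeR adjusted p = 0.565) did not pass. Foxo3 had a log2 fold change of 0.13 (SE 0.06; edgeR adjusted p = 0.177) and was higher in the pericentral zone in 3 of 4 libraries; without fed 2 it was 0.19 and passed (edgeR adjusted p = 0.0248). Trib1, a pseudokinase that recruits the ubiquitin ligase Cop1 to its targets, had -0.17 (SE 0.09; edgeR adjusted p = 0.235), with values below 0 in 4 of 4 libraries. The receptor Insr had -0.06 (SE 0.06; edgeR adjusted p = 0.579), also below 0 in 4 of 4 libraries, with ratios between 0.929 and 0.995. Foxo1 had 0.01 (SE 0.06), Akt2 -0.01 (SE 0.09) and Pik3r1 0.04 (SE 0.07), and each of these had values on both sides of 0 among the libraries.

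**Figure D1:**
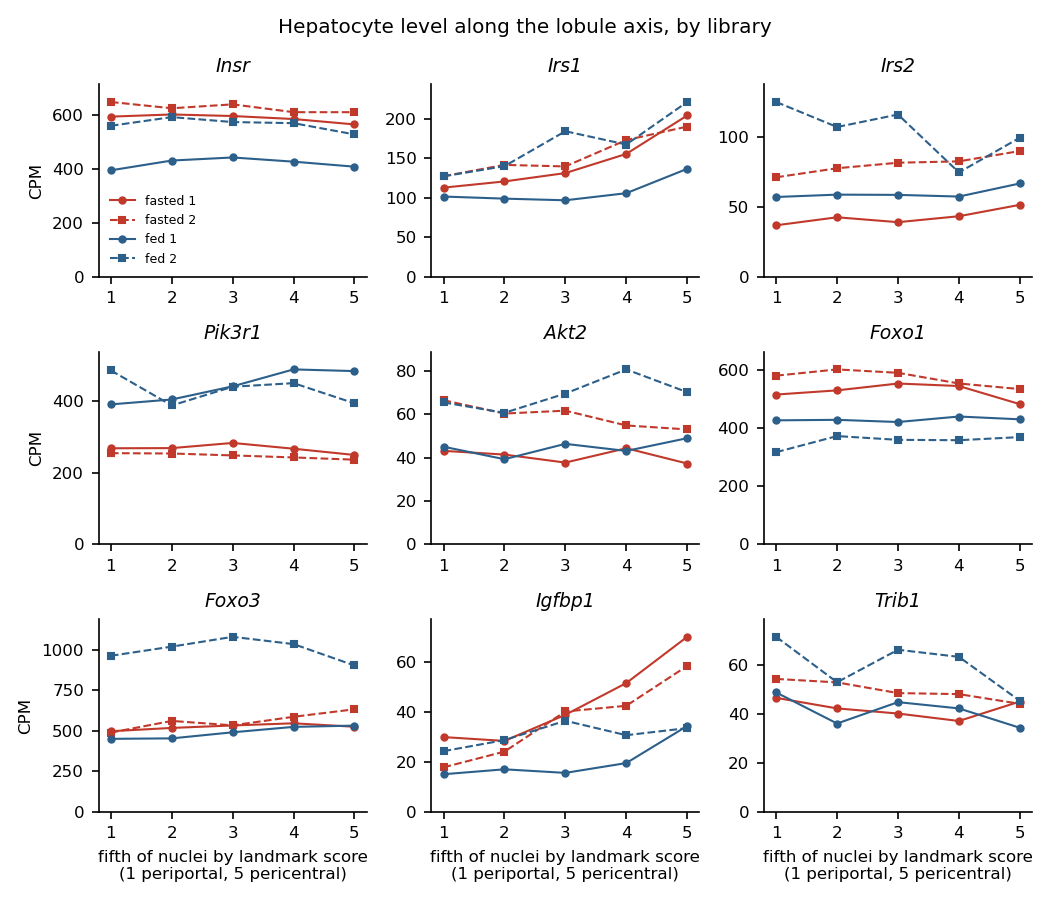
CPM (vertical axis, linear from 0) of each of the 9 genes in hepatocytes split into 5 equal groups by landmark score, from 1 (periportal) to 5 (pericentral), with 1 line per library. The lines of Irs1 and Igfbp1 end higher at the pericentral side than they begin in each library, while those of Insr and Foxo1 stay near level.

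The axis score was checked on its own landmarks. Cyp2e1, a pericentral cytochrome P450, had pericentral to periportal ratios of at least 4.38, and Cyp2f2, a periportal one, ratios of 0.0804 to 0.139; both were used to build the score, so this is a description. Pericentral nuclei were deeper, with median UMIs of 3418, 3775.5, 3279.5 and 2491 in fasted 1, fasted 2, fed 1 and fed 2, against 2782, 3009, 2534 and 2201.5 in the periportal zones. The acute-phase cluster held 18.7% of the pericentral and 34.1% of the periportal zone of fed 1. The part of depth in these differences was not tested.

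Clusters of hepatocytes, which were made without the 9 genes, are given as a description. In the cluster led by the pericentral genes Glul and Slc1a2, Irs1 was at 222 CPM in fasted 1, 194 CPM in fasted 2 and 206 CPM in fed 2. In a cluster led by the periportal genes Sds, Hsd17b13 and Cyp2f2, it was at 110 CPM in fasted 1. In the 60 nuclei of that cluster from fasted 2 it was at 84.3 CPM, from only 14 UMIs. Most periportal nuclei of fasted 2 lay elsewhere, as 2380 were in a cluster with the periportal genes Uroc1 and Mfsd2a among its leading genes. Irs1 was at 135 CPM there (1188 UMIs), and at 184 CPM (73 UMIs) in the 126 nuclei of that cluster from fasted 1. Igfbp1 was at 63.0 CPM in fasted 1, 48.6 CPM in fasted 2 and 36.1 CPM in fed 2 in the Glul cluster. In the Sds cluster it was at 33.2 CPM in fasted 1 and 24.1 CPM (4 UMIs) in fasted 2. In the Uroc1 cluster it was at 15.1 CPM (6 UMIs) in fasted 1 and 25.3 CPM (223 UMIs) in fasted 2. The lowest value of Igfbp1 among clusters of at least 50 nuclei was 8.41 CPM (46 UMIs), in the acute-phase cluster of fed 1. The other fed 1 clusters of that size had 25.5 and 29.6 CPM. The second of these (513 nuclei), with Slc1a2 among its leading genes, had Irs1 at 139 CPM, against 122 CPM in the first. The Glul cluster held 10 nuclei of fed 1. Irs1 was also low in the acute-phase cluster, at 75.5 CPM against 122 and 139 CPM in the other fed 1 clusters, while Pik3r1 was at 482 CPM there, within the 410 and 492 CPM of those.

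**Figure D2:**
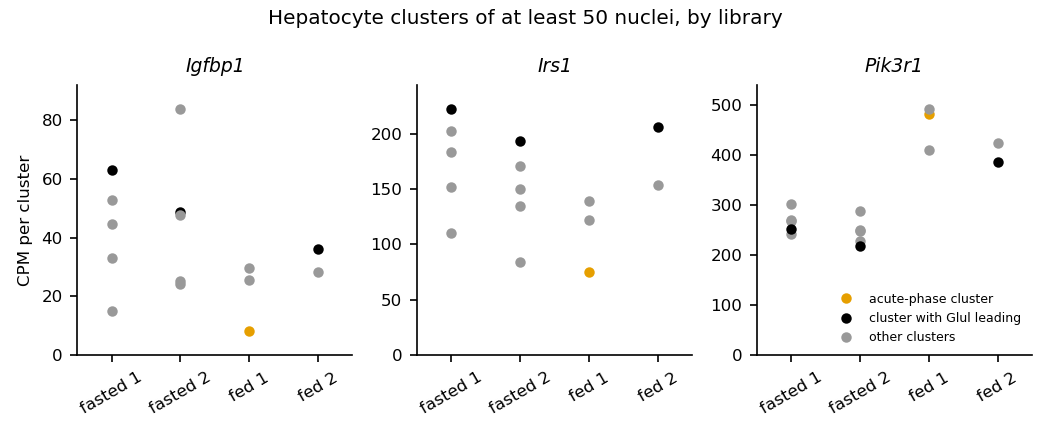
CPM (vertical axis, linear from 0) of Igfbp1, Irs1 and Pik3r1 in each hepatocyte cluster with at least 50 nuclei in a library, 1 point per cluster and library. The acute-phase point of fed 1 is the lowest for Igfbp1 (8.41 CPM) and Irs1 (75.5 CPM), and every fed point of Pik3r1 lies above every fasted one.

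Feeding was compared next, in hepatocytes as a whole. None of the 9 genes passed edgeR's test between fasted and fed at an adjusted p under 0.05, and none passed in DESeq2. One of them, Pik3r1, had an unadjusted p under 0.05 in edgeR. Over all genes edgeR called 0.00715% of 13985, 6.8% had an unadjusted p under 0.05, and DESeq2 called 0.655% of 24871. The levels of 4 genes did not overlap between the groups, with Insr, Foxo1 and Igfbp1 higher and Pik3r1 lower in fasted hepatocytes. The groups did not overlap for 36.2% of all genes, 20.6% higher and 15.6% lower. The median log2 fold change of the 9 genes, fasted over fed, was -0.19, against -0.01 over all genes.

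Pik3r1 encodes p85-alpha, the regulatory subunit through which phosphoinositide 3-kinase docks on the substrates, on chromosome 13 (101680563 to 101768217, minus strand, GRCm38). It had 266 and 246 CPM in fasted hepatocytes, against 443 and 420 CPM in fed ones. Both fasted libraries lay below both fed ones, and the gap between the groups was wider than the spread within either. The log2 fold change was -0.79 (SE 0.29, n = 2 and 2; unadjusted p = 0.0318, edgeR adjusted p = 0.672). Over 13 alternatives it ran from -0.83 to -0.74 and the adjusted p of Pik3r1 from 0.203 upward. In the zones of the lobule the ratio of fasted to fed means was 0.544 pericentral, 0.61 in the middle and 0.614 periportal. The groups did not overlap in any zone, but the zones are parts of the same libraries. The share of all genes without overlap in a zone was not counted.

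The receptor Insr (chromosome 8, 3122061 to 3279617, minus strand, GRCm38) had 588 and 626 CPM in fasted hepatocytes, against 420 and 543 CPM in fed ones (log2 fold change 0.29, SE 0.33; edgeR adjusted p = 0.966). Foxo1, the main FoxO factor of liver glucose output, had 522 and 568 CPM in fasted hepatocytes, against 424 and 346 CPM in fed ones (0.47, SE 0.30; edgeR adjusted p = 0.846). In both genes the fasted values stood above the fed ones without overlap. They did so in every zone of the lobule, but the zones are parts of the same libraries. Leaving out a library moved Insr between 0.06 (without fed 1) and 0.57 (without fed 2) and Foxo1 between 0.37 and 0.55. Igfbp1 had 45.7 and 37.8 CPM in fasted hepatocytes, against 20.8 and 29.4 CPM in fed ones, from 958, 729, 350 and 199 UMIs in the same order. Its means were 41.7 ± 5.63 CPM in fasted and 25.1 ± 6.05 CPM in fed hepatocytes (SD, n = 2 each), with a log2 fold change of 0.69 (SE 0.37; unadjusted p = 0.109, edgeR adjusted p = 0.801). Without the acute-phase cluster of fed 1 the log2 fold change was 0.51, and leaving out each library in turn gave 0.40 (without fed 1) to 1.04 (without fed 2).

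Irs1 had 146 and 156 CPM in fasted hepatocytes, against 109 and 160 CPM in fed ones (0.12, SE 0.35). Irs2, whose transcription insulin represses through FoxO1, had 43.6 and 81.1 CPM in fasted hepatocytes, against 59.8 and 111 CPM in fed ones (-0.50, SE 0.50). Both genes overlapped between the groups, and the sign turned when a fed library was left out, to -0.19 for Irs1 without fed 1 and to 0.11 for Irs2 without fed 2. Akt2, the main Akt kinase of insulin action in liver, had 40.9 and 59.0 CPM in fasted hepatocytes, against 46.2 and 64.5 CPM in fed ones (-0.19, SE 0.39). Foxo3, the sister factor of Foxo1, had 523 and 562 CPM in fasted hepatocytes, against 486 and 928 CPM in fed ones (-0.44, SE 0.42). For Trib1 the fasted hepatocytes had 42.0 and 49.7 CPM and the fed ones 41.2 and 64.6 CPM (-0.25, SE 0.38). In these 3 genes fed 2 was the highest library, and without it the log2 fold changes were 0.15 for Akt2, 0.19 for Foxo3 and 0.19 for Trib1. With every library thinned to the depth of the smallest, 0 members passed as well. A p that misses the threshold with 2 libraries a group does not show that levels were alike.

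**Figure D3:**
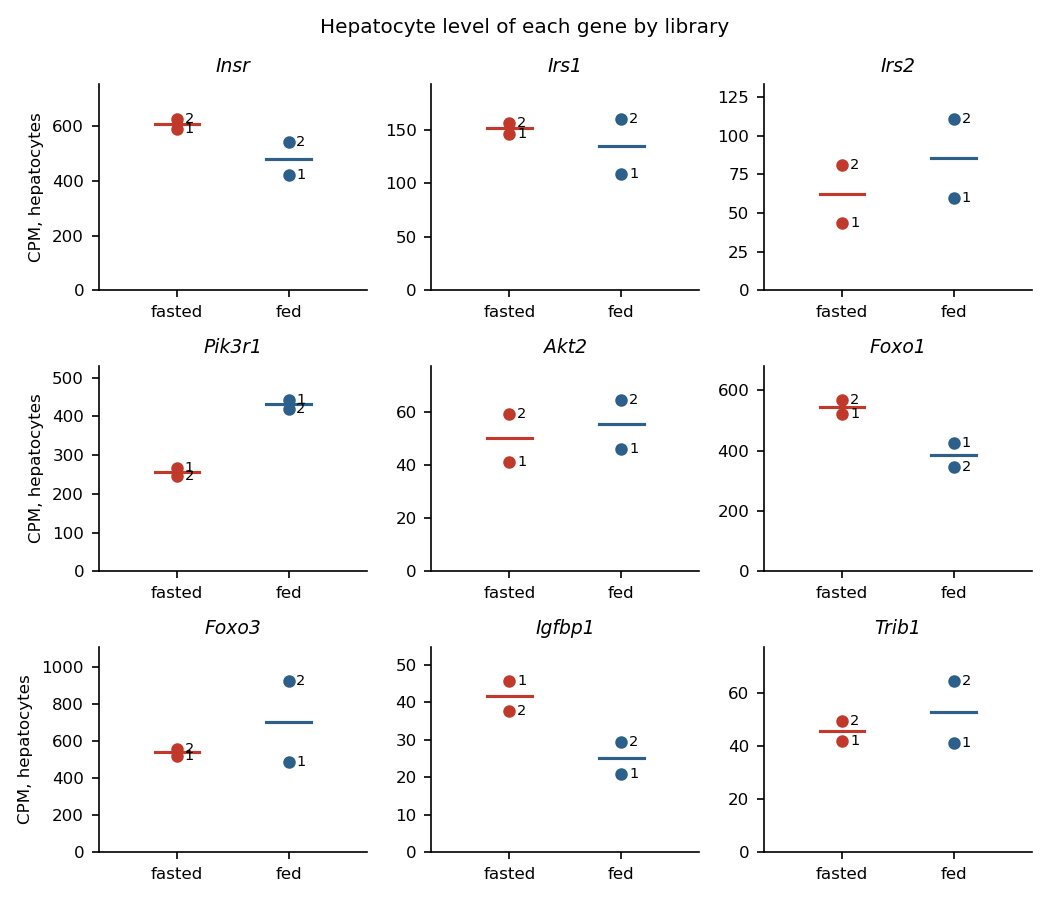
CPM in hepatocytes (vertical axis, linear from 0, its own range for each gene) of the 9 genes in the fasted (left) and fed (right) libraries; points are libraries 1 and 2 and bars are the mean of 2. For Pik3r1 both fasted points (266 and 246 CPM) lie below both fed points (443 and 420 CPM), while fed 2 is the highest point for Irs1, Irs2, Akt2, Foxo3 and Trib1.

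Whether the difference along the lobule itself changed with feeding was tested as an interaction. No member passed in edgeR, where 0.237% of 12245 genes were called. At an unadjusted p under 0.05 there were 2 members, Igfbp1 and Akt2, against 6.86% of all genes. The pericentral over periportal log2 ratio of Igfbp1 averaged 1.12 in fasted and 0.54 in fed libraries, without overlap, an interaction of 0.48 (SE 0.23; unadjusted p = 0.0496, edgeR adjusted p = 0.727). Over its 10 alternatives the interaction of Igfbp1 ran from 0.33 to 0.81 and did not pass in any. The fasted to fed ratio of mean Igfbp1 levels was 1.76 in the pericentral, 1.73 in the middle and 1.16 in the periportal zone. The groups overlapped in the periportal zone alone. The shares of all genes without overlap in a zone or in the zone ratio were not counted. The same interaction was -0.36 (SE 0.17; edgeR adjusted p = 0.722) for Akt2 and 0.31 (SE 0.18; edgeR adjusted p = 0.844) for Irs2. For Pik3r1 it was -0.20 (SE 0.13; edgeR adjusted p = 0.893) and passed without fed 2, at -0.40 (edgeR adjusted p = 0.00456), while without fed 1 it was 0.05.

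**Figure D4:**
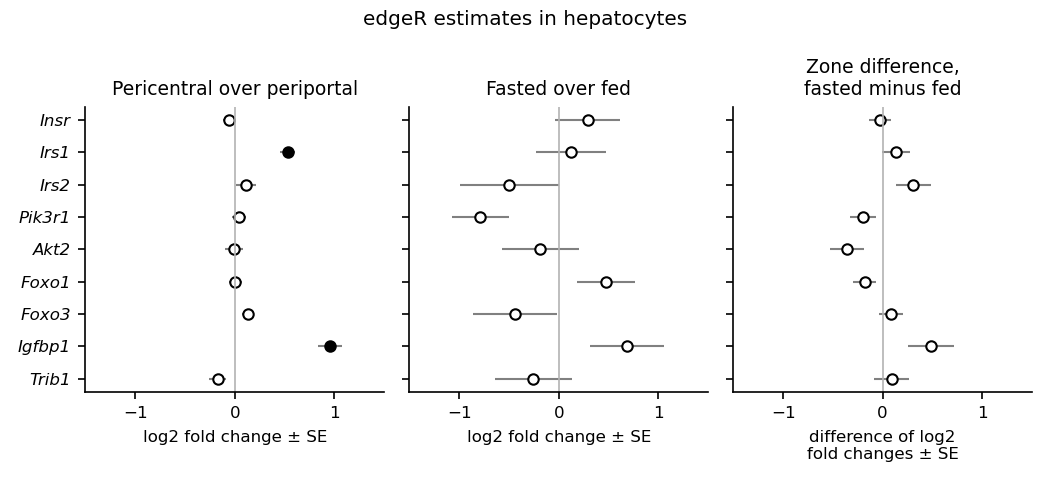
Estimates for the 9 genes in hepatocytes from edgeR, as log2 fold change ± SE: pericentral over periportal (left), fasted over fed (middle), and the difference of the zone effect, fasted minus fed (right). Filled points passed at an adjusted p under 0.05, which were Irs1 (0.53) and Igfbp1 (0.95) in the left panel; the SEs of the feeding estimates are wider than those of the zone estimates.

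Outside hepatocytes, levels have to be read against free hepatocyte RNA. The 8 hepatocyte markers summed to 47.3 to 71.1% of their hepatocyte level in endothelial nuclei, 51.5 to 85.5% in Kupffer cells or macrophages, 30.1 to 68.7% in stellate nuclei, 42.0 to 77.6% in cholangiocytes and 74.9 to 94.9% in B or plasma cells. Of the 8 markers, none was at 0 UMIs in any endothelial, Kupffer cell or macrophage, or stellate sum, while 1 was at 0 in B or plasma cells and 2 in cholangiocytes of fed 2. Fed 2 had between 22 and 130 nuclei of each of these types. Median UMIs per nucleus were 742 to 888 in endothelial nuclei, against 1282 to 3239 in hepatocytes. For every gene, the ranges of types next to each other in the order of medians overlapped, so the order below is a description.

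Insr had its highest median in endothelial nuclei, with 781 and 989 CPM in the fasted and 576 and 451 CPM in the fed libraries. That was 133% and 158% of the hepatocyte level in the fasted libraries and 137% and 83.1% in the fed ones, above all 8 hepatocyte markers in 3 of 4 libraries. Insr medians in the other types were 565 CPM in hepatocytes, 521 CPM in B or plasma cells, 495 CPM in cholangiocytes, 422 CPM in Kupffer cells or macrophages and 359 CPM in stellate nuclei. In endothelial nuclei the fasted values exceeded the fed ones, with a log2 fold change of 0.75 (SE 0.34; unadjusted p = 0.0471, edgeR adjusted p = 0.999). They did so too in hepatocytes and in Kupffer cells or macrophages, the latter with 473 and 467 CPM fasted against 373 and 378 CPM fed. In stellate nuclei, cholangiocytes and B or plasma cells the groups overlapped. The share of all genes without overlap was not counted outside hepatocytes. The summed hepatocyte markers overlapped between the groups in endothelial nuclei, at 52.9% and 53.1% of the hepatocyte level in the fasted and 47.3% and 71.1% in the fed libraries.

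Pik3r1 had its highest median in stellate nuclei, with 476 and 826 CPM in the fasted and 582 and 275 CPM in the fed libraries, the last from 25 UMIs. In Kupffer cells or macrophages it had 490 and 417 CPM in the fasted and 500 and 369 CPM in the fed libraries. In both types it stood above all 8 hepatocyte markers, as a percent of the hepatocyte level, in 3 of 4 libraries. The fasted and fed libraries overlapped in both types. The test of whether the feeding difference itself differed from that in hepatocytes gave 1.56 on the log2 scale for stellate nuclei (SE 0.53; unadjusted p = 0.00319, edgeR adjusted p = 0.420). For Kupffer cells or macrophages it gave 0.81 (SE 0.28; unadjusted p = 0.00440, edgeR adjusted p = 0.531), so neither passed over all genes. The test called 0.25% of genes in stellate nuclei and 0.266% in Kupffer cells or macrophages. Without fasted 1 the stellate value was 1.79 and passed (edgeR adjusted p = 0.0177), and leaving out each library gave 0.92 to 2.11. In B or plasma cells Pik3r1 had 220 and 293 CPM in the fasted libraries, against 508 and 689 CPM in the fed ones, with a log2 fold change of -1.19 (SE 0.46; unadjusted p = 0.0314, edgeR adjusted p = 1.00). Endothelial nuclei had Pik3r1 at 235 and 253 CPM in the fasted libraries, against 322 and 435 CPM in the fed ones. The log2 fold change there was -0.64 (SE 0.35, edgeR unadjusted p = 0.0954), in the direction seen in hepatocytes. In cholangiocytes the groups overlapped.

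Irs1, Irs2, Foxo1, Foxo3 and Trib1 had their highest median in hepatocytes. The Irs1 median was 151 CPM there (range 109 to 160 over 4 libraries), against 107 CPM in stellate nuclei, 101 CPM in B or plasma cells, 99.3 CPM in Kupffer cells or macrophages, 76.0 CPM in cholangiocytes and 68.8 CPM in endothelial nuclei (59.9 to 125). The Irs2 median was 70.5 CPM in hepatocytes and 22.2 CPM in endothelial nuclei. Foxo1 ran from a median of 473 CPM in hepatocytes to 204 CPM in cholangiocytes, and Foxo3 from 542 CPM in hepatocytes to 337 CPM in endothelial nuclei. The Trib1 medians of 45.8 CPM in hepatocytes, 44.7 CPM in Kupffer cells or macrophages and 41.9 CPM in endothelial nuclei lay close together. Nuclei of T or NK cells, mesothelial and dendritic cells numbered 3 to 6 each in fed 2 and were not compared.

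Akt2 and Igfbp1 were not highest by median in hepatocytes. Akt2 had medians of 56.2 CPM in Kupffer cells or macrophages and 52.6 CPM in hepatocytes. It was above all 8 hepatocyte markers, as a percent of the hepatocyte level, in 3 of 4 Kupffer cell or macrophage libraries. Its counts there were 33 and 50 UMIs in the fasted and 32 and 7 UMIs in the fed libraries. In fed 2 Akt2 stood at 100% against 95.8% for the highest marker, a narrow margin for 7 UMIs. Igfbp1 had a median of 34.3 CPM in B or plasma cells, from 0 to 11 UMIs per library, and 33.6 CPM in hepatocytes. In endothelial, Kupffer cell or macrophage and stellate nuclei Igfbp1 was between 0 and 66.1% of its hepatocyte level. It was above the highest hepatocyte marker in 1 of these 12 sums. The part of free hepatocyte RNA in these levels was not tested. In fed 2 Igfbp1 had 0 UMIs in endothelial nuclei, which allows up to 25.1 CPM. Irs2 was lowest in endothelial nuclei, at 32.5 to 40.6% of the hepatocyte level in fasted and 30.3 to 45.2% in fed libraries, under the median hepatocyte marker in 4 of 4 libraries. Foxo1 in cholangiocytes was at 79.0, 38.9, 44.1 and 33.1% of the hepatocyte level in fasted 1, fasted 2, fed 1 and fed 2. The median hepatocyte marker was at 80.0, 41.9, 46.0 and 50.5% in the same order. Foxo1 was thus under it in 4 of 4 libraries, but close to it in all except fed 2, where Foxo1 had 2 UMIs.

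**Figure D5:**
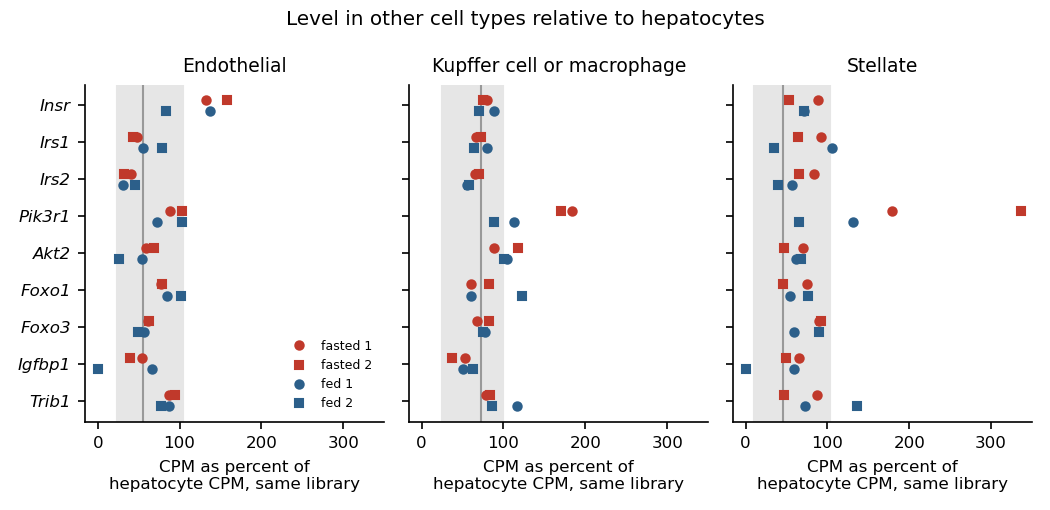
Level of each gene in endothelial, Kupffer cell or macrophage and stellate nuclei as a percent of its CPM in hepatocytes of the same library (horizontal axis, linear), 1 point per library; the grey band spans the lowest to highest of the 8 hepatocyte markers over the 4 libraries and the grey line is the median of their library medians. Points to the right of the band include Insr in endothelial nuclei (133, 158 and 137%) and Pik3r1 in stellate nuclei of fasted 2 (336%).

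In the tests of feeding within each other type, no member passed in edgeR or DESeq2. Of the members that passed the low-count filter, there were 9 in endothelial, Kupffer cell or macrophage and stellate nuclei, 6 in cholangiocytes and 5 in B or plasma cells. At an unadjusted p under 0.05 in edgeR there was 1 in endothelial nuclei (Insr) and 1 in B or plasma cells (Pik3r1), against 4.01% and 3.19% of all genes there. There was none in Kupffer cells or macrophages, stellate nuclei and cholangiocytes, against 2.93%, 3.16% and 5.27%. Past the adjusted threshold were 0.059% of all genes in endothelial nuclei, 0.0122% in Kupffer cells or macrophages, 0.0398% in stellate nuclei, 0.0475% in cholangiocytes and 0.0% in B or plasma cells. The interaction of type and feeding against hepatocytes called no member in edgeR in any of the 5 types, while it called 0.565% of all genes for endothelial nuclei, 0.0163% for B or plasma cells and 0.00788% for cholangiocytes. Its unadjusted p was under 0.05 for 1 member each in stellate nuclei and in Kupffer cells or macrophages, Pik3r1 in both, against 3.61% and 4.27% of all genes. It was so for 0 members in the other types, against 5.94% of genes for endothelial nuclei, 2.13% for B or plasma cells and 3.84% for cholangiocytes.

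The wider pathway was read from 98 genes in 8 lists. Between pericentral and periportal hepatocytes 87 of them were tested, and 18 passed in edgeR, 7 higher and 11 lower in the pericentral zone, where the shares over all genes were 16.2% in all, 7.97% higher and 8.22% lower. The median log2 fold change over the 87 was 0.01, against -0.01 over all genes. Among the 8 tested receptor and adaptor genes none passed, 7 had values below 0 (median -0.14), and 4 had an unadjusted p under 0.05, against 26.5% of all genes.

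Among 9 tested brakes on the receptor, 6 had values below 0 (median -0.11) and 1 passed. It was Enpp1, an ectoenzyme that binds the receptor and restrains it, which had pericentral levels of 43.2, 46.5, 34.0 and 57.7 CPM in fasted 1, fasted 2, fed 1 and fed 2, against 19.0 to 26.5 CPM in the periportal zone (log2 fold change 0.99, SE 0.12; edgeR adjusted p = 5.31e-06). Igf2r, which takes up and clears Igf2, had 66.4, 86.8, 36.7 and 35.5 CPM pericentral, against at most 25.1 CPM periportal (1.71, SE 0.18; edgeR adjusted p = 8.01e-05). Igf1, the growth factor that Igfbp1 protein binds, went the other way, with 902, 560, 1295 and 194 CPM pericentral, against 1655, 1333, 1928 and 471 CPM periportal (-0.96, SE 0.13; edgeR adjusted p = 0.00133). The call on Igf1 was lost with even-numbered landmarks (edgeR adjusted p = 0.0809), and of 6 tested IGF genes 1 was thus higher and 1 lower, against 7.97% and 8.22% of all genes.

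Among kinase genes, Sgk2, a relative of Akt, was higher in the pericentral zone (1.15, SE 0.12; edgeR adjusted p = 1.79e-05), with 98.2 to 124 CPM there against 32.3 to 66.7 CPM in the periportal zone. Its relative Sgk3 was lower (-0.27), a call lost in 7 of 12 alternatives, among them those without fasted 1, fasted 2 or fed 1 (edgeR adjusted p up to 0.126). Pik3cb, the catalytic p110-beta subunit, was higher by 0.37 (SE 0.09), and Pik3c2a, a class II lipid kinase, lower at -0.34 (SE 0.06). Of the 9 tested genes for phosphoinositide 3-kinase and lipid phosphatases, 2 were higher and 1 lower, against 7.97% and 8.22% of all genes. Pik3r3, a further regulatory subunit, was higher by 0.60 but passed in 4 of 12 alternatives, and not without fasted 1, fasted 2 or fed 1 (edgeR adjusted p up to 0.273).

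Of 18 tested FoxO targets, 2 were higher in the pericentral zone, Pdk4 and Bcl2l11, against 7.97% of all genes. Lower were 5, G6pc, Apoc3, Pck1, Txnip and Sod2, against 8.22% of all genes, and the median of the 18 was -0.03. G6pc, which releases free glucose, had 420, 589, 467 and 343 CPM in the pericentral zone of fasted 1, fasted 2, fed 1 and fed 2, against 659, 1162, 676 and 762 CPM in the periportal zone (-0.81, SE 0.10; edgeR adjusted p = 1.88e-04). Pck1, the first committed enzyme of glucose synthesis, had -0.46 (SE 0.10; edgeR adjusted p = 0.0145), a call lost without fed 1 (edgeR adjusted p = 0.208). Their coactivator Ppargc1a had 205, 203, 86.9 and 43.1 CPM pericentral, against 357, 344, 221 and 77.3 CPM periportal (-0.93, SE 0.09; edgeR adjusted p = 1.61e-06). These 3 genes of glucose output thus ran opposite to Igfbp1 along the lobule. Apoc3, an inhibitor of triglyceride clearance, had -0.50 (SE 0.07). Bcl2l11, a cell death gene, had 0.78 (SE 0.15), and Pdk4, which blocks pyruvate oxidation, had 2.62 (SE 0.51) at levels of 8.24 CPM or less.

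In the mTOR and GSK3 branch 18 genes were tested, none was higher and 2 were lower in the pericentral zone: Gys2, the liver glycogen synthase, at -0.46 (SE 0.08; edgeR adjusted p = 3.00e-04), and Tbc1d4, a target of Akt in vesicle traffic, at -0.53. Over all genes 7.97% were higher and 8.22% lower. The Tbc1d4 call was lost in 6 of 12 alternatives, among them those without fasted 2, fed 1 or fed 2 (edgeR adjusted p up to 0.186). The Sod2 call was lost in 4, among them those without fasted 1 or fasted 2 (edgeR adjusted p up to 0.306). Without fasted 1 the edgeR adjusted p was 0.0836 for Txnip and 0.0749 for Pik3cb. It was 0.113 for Txnip without fed 2 and 0.0558 for Pik3cb without fed 1. No pathway gene passed the interaction of lobule position and feeding in edgeR, where 10 of 87 had an unadjusted p under 0.05; over all genes 0.237% passed and 6.86% had such a p.

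Between fasted and fed hepatocytes none of the 90 tested pathway genes passed in edgeR, where 5 had an unadjusted p under 0.05, against 6.8% of all genes. In DESeq2 1 passed, Gadd45a, against 0.655% of all genes. The median log2 fold change over the 90 was -0.10, against -0.01 over all genes. Ppargc1a had 266 and 276 CPM in fasted hepatocytes, against 144 and 57.4 CPM in fed ones (1.42, SE 0.45; edgeR adjusted p = 0.631). Klf15, a fasting transcription factor, had 157 and 169 CPM in fasted hepatocytes, against 98.4 and 87.9 CPM in fed ones (0.77, SE 0.29; edgeR adjusted p = 0.685). Pck1 had 1831 and 2152 CPM in fasted hepatocytes, against 1224 and 1321 CPM in fed ones (0.61, SE 0.32; edgeR adjusted p = 0.798). In all 3 genes the fasted libraries stood above the fed ones. They did so too for Ceacam1 (0.78), which promotes insulin clearance, Sgk2 (0.53) and Igf2r (0.67). These genes, and those lower in fasted hepatocytes below, were picked for the smallest p in this same comparison. That choice favours groups without overlap, so the separation is no further evidence of a difference. Over all genes, 20.6% were higher and 15.6% lower in fasted hepatocytes without overlap. The share among the 90 was not counted.

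Values were lower in both fasted libraries for Bcl6, a repressor, with 239 and 261 CPM in fasted hepatocytes, against 340 and 695 CPM in fed ones (-1.11, SE 0.44; edgeR adjusted p = 0.729). Pik3r3 had the same direction as Pik3r1, with 5.58 and 6.11 CPM in fasted hepatocytes, against 13.8 and 11.5 CPM in fed ones (-1.15, SE 0.42; edgeR adjusted p = 0.671). Without fed 1, Bcl6 passed at -1.58 (edgeR adjusted p = 0.0378), and Ppargc1a passed at 2.13 (edgeR adjusted p = 0.0199). Gadd45a, a stress gene, had 0.763 and 0.362 CPM in fasted hepatocytes, against 4.93 and 5.75 CPM in fed ones (-3.27, SE 0.66; edgeR adjusted p = 0.465, DESeq2 adjusted p = 0.00424), and passed in edgeR without fed 1 (adjusted p = 0.0386) and without fed 2 (adjusted p = 0.0493). Sh2b2, an adaptor, had -1.51, Phlpp2, an Akt phosphatase, -0.63, and Socs3, a brake on the receptor, -1.55, the last with 5.68 and 1.86 CPM in fasted hepatocytes, against 16.3 and 5.31 CPM in fed ones, and thus with overlap.

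The genes most like 8 of the 9 members were found by Pearson's correlation of log2(CPM + 1) over 24 sums, 6 types in 4 libraries, among 9252 genes with a mean of at least 10 CPM. The sums of a library share its depth and free RNA, so these values are descriptive. Insr was most like Arhgef3 (r = 0.778) and Lamp2 (0.773), and Irs1 was most like Slc6a12 (0.812) and Gm46440 (0.797). Irs2 was most like Safb (0.854) and Hdac4 (0.825), and Pik3r1 was most like Reck (0.754) and Mpp6 (0.718). For Akt2 the genes were Irak2 (0.966) and Tmem205 (0.957), and for Foxo1 they were Igfbp4 (0.885) and Phyh (0.882). For Igfbp1 they were Gm15764 (0.949) and Gm26839 (0.907), and for Trib1 Focad (0.942) and Slc9a8 (0.936).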

How the data were processed

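Per the labels' protocols, nuclei were prepared from pooled frozen liver and loaded on a 10x Genomics controller. Per the submitters' processing notes, Cell Ranger 6.0 and mm10 were used. The deposited matrices hold raw counts of UMIs per gene and barcode; between 13.2% and 17.0% of stored entries were 0. From these, barcodes with 500 genes or more were kept where mitochondrial genes held no more than 5% of UMIs, Scrublet's highest scores were removed as doublets at 0.8% per 1000 barcodes, and clusters were made in scanpy 1.11.5 (2000 variable genes without the 9 members, 30 components, Leiden resolution 1) and named by their markers. Counts were summed per library and type and tested in edgeR 4.0.16 (quasi-likelihood, TMM scaling, filterByExpr, robust) with Benjamini-Hochberg adjustment over all genes tested; the SE was taken as the log2 fold change divided by the square root of its F statistic. DESeq2 1.42.0, RLE scaling, no low-count filter, thinned depth, 1000 genes per nucleus, other landmarks, 5 zones and leaving out each library were alternatives. The axis score used 9 of 12 pericentral and 10 of 11 periportal landmarks detected in at least 2% of hepatocytes of every library, on counts thinned to 1500 UMIs, which left 4807 and 4230 nuclei in the fasted and 4339 and 1571 in the fed libraries. Promoter windows were matched by symbol. Named pathway genes are those past the threshold, at most the 12 with the smallest p, and for feeding the 12 with the smallest p; the other zone calls named (Pck1, Txnip, Sgk3, Tbc1d4, Pik3r3, Sod2) were added after their values were seen. The members and lists were chosen with earlier results of these data known. The genes most like Foxo3 are not reported here. The edgeR fits for feeding and for zone were also run on simulated counts with known changes. The spread in that simulation was a set value, not estimated from these libraries.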

Additional observations from a re-analysis of the deposited data

Results flagged for a closer look

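Members were flagged by the signs of their zone ratios, and the share of all genes with that pattern was not counted. Akt2 and Foxo1 are listed because their pericentral over periportal log2 ratios had opposite signs in the feeding states. For Akt2 they were -0.10 and -0.22 in the fasted and 0.11 and 0.33 in the fed libraries, a difference of -0.36 (SE 0.17; unadjusted p = 0.0481, edgeR adjusted p = 0.722). For Foxo1 they were -0.04 and -0.13 in the fasted and 0.03 and 0.18 in the fed libraries, a difference of -0.18 (SE 0.11; edgeR adjusted p = 0.877). Neither difference passed over all genes, and over 10 alternatives each the adjusted p ran from 0.451 to 1 for Akt2 and from 0.342 to 1 for Foxo1.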

How the results depend on the processing

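The zone calls of Igfbp1 and Irs1 held in all 12 alternatives; 2 members were called in each, and 3 without fed 2. No member was called for feeding in hepatocytes in any of 13. Fed 2 limits depth, with 199 Igfbp1 UMIs, and no library of a group has more than 1 partner. Where a value turned or a count moved, the cause was not tested.

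Genes called between fasted and fed hepatocytes numbered 1, but 163 in DESeq2, 276 without a low-count filter, 0 with stored zeros as 1, and 4 to 270 when a library was left out. Summed over the 5 other types they numbered 12, but 37 in DESeq2, 100 without the filter and 56 to 225 without a library. The lobule calls (1983) were 1318 to 2040 without a library. Calls on the interaction of lobule position and feeding (29) were 46 with even-numbered landmarks, 87 without the filter and 19 to 241 without a library; those of type and feeding (146) were 25 to 518. Pathway genes called for feeding (0) were 1 in DESeq2 (Gadd45a), 2 without the filter (Gadd45a and Ppargc1a) and 0 to 3 without a library; lobule calls among them (18) were 13 to 16.

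The replicate numbers carry no stated pairing. Deviations from the group mean correlated at 0.423 between hepatocytes of fasted 1 and fed 1, over 13985 genes. With 2 libraries a group the second pair mirrors the first, so it is no separate comparison. With the replicate number as a block 10 genes were called in hepatocytes and 403 in the other types. No member was among those of hepatocytes. There 3 of 9 members had an edgeR unadjusted p under 0.05 (Pik3r1, Irs2 and Igfbp1), against 1 without the block. Over all genes 2047 of 13985 had such a p with the block.

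Feeding values that changed sign when a library was left out spanned -0.19 to 0.51 for Irs1, -1.06 to 0.11 for Irs2, -0.52 to 0.15 for Akt2, -0.88 to 0.19 for Foxo3 and -0.60 to 0.19 for Trib1. Zone values did so from -0.074 to 0.093 for Pik3r1, -0.063 to 0.090 for Akt2 and -0.028 to 0.056 for Foxo1, and were also -0.0020 with even-numbered landmarks and -0.046 with 5 zones for Pik3r1; 7.72e-04 without the filter, 0.013 in DESeq2 and 0.013 without the acute-phase cluster for Akt2; and -0.042 with odd-numbered landmarks, -0.024 with 5 zones, -0.0013 without landmarks that respond to fasting and -0.013 without the acute-phase cluster for Foxo1. The interaction spanned -0.088 to 0.030 for Insr (0.0099 with even-numbered landmarks), -0.17 to 0.32 for Irs1, -0.40 to 0.046 for Pik3r1, -0.023 to 0.19 for Foxo3 and -0.0070 to 0.24 for Trib1 (-0.0018 with even-numbered landmarks). Leaving out the acute-phase cluster was chosen after seeing the data.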
